A study of Mus musculus with 6 samples.

Results

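The unfolded protein response and the degradation of misfolded proteins from the endoplasmic reticulum (ER) were followed through 36 genes in the inguinal fat depot of obese mice, a white fat that lies under the skin. The genes were chosen by symbol as known sensors, chaperones, disulfide enzymes, degradation factors and translocation factors. Of the 36, 35 were found by name among the 54532 genes of the deposited table, and Vimp was found under its newer symbol Selenos, which RefSeq pairs with it. All 36 passed the filter on low counts and were tested. Control mice carried floxed Cdo1 alleles (Cdo1flox/flox, called WT in the genotype labels) and Cdo1AKO mice had Cdo1 knocked out in adipose tissue. Feeding on high-fat chow began when the mice were 8 weeks old and lasted 15 weeks in both groups, and each group had 3 samples. The promoter that drives the deletion and the sex of the mice are not given in the sources used here. Nothing states that replicates were different mice, so p-values here reflect sample spread that could be technical.

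Proteins that enter the ER are folded by chaperones and joined by disulfide bonds before they are exported. When unfolded proteins accumulate, the membrane sensors IRE1 (encoded by Ern1), PERK (Eif2ak3) and ATF6 are activated. IRE1 splices the Xbp1 mRNA into the form that encodes an active transcription factor, PERK phosphorylates the initiation factor eIF2alpha, and ATF6 is cut to release a transcription factor. Together these raise chaperone genes and genes of ER-associated degradation, the route by which misfolded proteins are pulled back into the cytosol for the proteasome. Fat cells secrete large amounts of protein, and plasma cells depend on Xbp1 for antibody secretion. Gene counts do not separate spliced from unspliced Xbp1 mRNA, and they do not measure the activation of any sensor.

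Libraries held 16275184 to 19205804 counts. Cdo1, which encodes cysteine dioxygenase, stood at 887, 432 and 631 CPM (counts scaled to library size, with TMM factors) in control 1 to 3 and at 123, 392 and 134 CPM in Cdo1AKO 1 to 3. The groups did not overlap, and the log2 fold change of -1.59 ± 0.53 (SE) had adjusted p = 0.416 by edgeR. Control 1 and Cdo1AKO 2 stood apart from the other 4 libraries. Their summed level of 10 B cell markers was 2.52 and 8.17 CPM against 826 to 1431 CPM in the other 4, so that 2 libraries of each group held lymph node transcripts. Cdo1AKO 1 and 3 were closest to each other, with a chi-square of 5.63 per gene between their counts, against 23.0 to 80.2 for pairs of controls and 194 and 203 for Cdo1AKO 2 with them. Pairs in both groups differed by more than sampling noise. The summed level of 15 adipocyte markers was 51813 to 77035 CPM in controls, 32785 and 34588 CPM in Cdo1AKO 1 and 3, and 72621 CPM in Cdo1AKO 2. All 15 were detected, and 13 were lower in Cdo1AKO. Summed levels of 11 macrophage markers were 691 to 833 CPM in controls and 941 to 1014 CPM in Cdo1AKO, all 11 higher. The 13 T and NK cell markers summed to 19.5, 456 and 260 CPM in controls and to 1186, 20.5 and 1213 CPM in Cdo1AKO, and 7 lymph node stroma markers to 7.24, 174 and 85.5 against 101, 2.32 and 106 CPM. Ranges for 5 endothelial markers were 689 to 870 and 656 to 1404 CPM. Ranges for 8 mammary epithelium markers were 1.04 to 2.36 and 0.515 to 3.35 CPM, with Csn3 at 0. Ranges for 6 skeletal muscle markers were 41.8 to 120 and 106 to 197 CPM, with Myh4 at 0. The part of these markers in the results that follow was not tested. Fewer cells of a type and less RNA per cell cannot be told apart in such bulk samples.

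A promoter element of the unfolded protein response was looked for in these genes. The genes were chosen as known parts of that response. A share above that of all windows is therefore no independent result. The ER stress response element is the site through which ATF6 and the spliced XBP1 protein act with the factor NF-Y, and its letters are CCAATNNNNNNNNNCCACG. It was searched on both strands in RefSeq promoter windows (GRCm38.p6, the build mm10 corresponds to), each reaching from 250 bases before to 50 bases after a transcription start. Windows were found for 32 of the 36 genes, and none was matched for Atf6, Hyou1, Manf and Derl1. The element lay in the windows of 10 of the 32 genes, or 30.3% of their 33 windows, against 0.119% of all 32851 windows. The related element ATTGGNCCACG lay in the windows of 2 further genes, Herpud1 and Dnajb11, and in 0.0365% of all windows. The 2 patterns share their last 5 letters and the CCAAT box, which stands reversed in the second. The UPRE, TGACGTGG, lay in 0 of the 33 windows and in 0.676% of all. A match is a match of letters and not a measured site. The search was for exact letters in these windows, so the lack of a match does not show that a gene lacks an element. Of 128 other genes of the secretory pathway with a window, 2 held an element, Alg12 and Krtcap2. Another 35 genes with an element were neither among the 36 nor in the secretory pathway lists. The median GC content was 63.3% in the 33 windows and 52.7% in all windows.

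Elements of chaperone, disulfide and degradation genes are printed here, read 5′ to 3′ on the gene's strand. Of the 32 genes with a window, 12 held an element in it and 20 had no match there. Capitals mark the element, which reads CGTGG to ATTGG where it lies on the reverse strand.
Hspa5, chr2:34772020-34772048, plus strand: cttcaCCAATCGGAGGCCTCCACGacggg
Hsp90b1, chr10:86705626-86705668, minus strand: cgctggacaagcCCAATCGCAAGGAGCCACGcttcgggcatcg
Hsp90b1, chr10:86705521-86705563, minus strand: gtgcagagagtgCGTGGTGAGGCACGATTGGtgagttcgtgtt
Calr, chr8:84847063-84847105, minus strand: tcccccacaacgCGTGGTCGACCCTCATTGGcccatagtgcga
Canx, chr11:50325788-50325830, minus strand: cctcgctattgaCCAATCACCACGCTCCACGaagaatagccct
Pdia6, chr12:17266479-17266521, plus strand: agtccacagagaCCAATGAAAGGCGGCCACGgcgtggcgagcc
Ero1lb, chr13:12565670-12565712, plus strand: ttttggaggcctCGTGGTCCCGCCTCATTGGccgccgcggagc
Derl3, chr10:75893230-75893272, plus strand: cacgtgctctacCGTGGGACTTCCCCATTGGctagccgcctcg
Syvn1, chr19:6046520-6046562, plus strand: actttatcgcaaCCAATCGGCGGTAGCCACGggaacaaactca
Herpud1, chr8:94386365-94386399, plus strand: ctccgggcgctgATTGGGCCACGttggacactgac
The other carriers were Dnajc3 and Creld2, with the longer element, and Dnajb11, whose short element lies at bases 8 to 18 of the transcript. Among the sequences shown, the element of Hspa5 began 65 bases before the RefSeq start and that of Syvn1 44 bases before it. Hsp90b1 alone of the 32 genes held 2 elements, beginning 212 and 107 bases before the start.

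Xbp1 and Derl1 were the genes furthest below control in Cdo1AKO tissue, and the median of the chaperones over all 6 libraries lay near the control level. In the edgeR fit over all 16623 genes tested, 0 of the 36 passed at adjusted p under 0.05, as did 0% of all genes. DESeq2 called 0 of the 36, against 1.48% of the genes to which it gave an adjusted p (0.514% higher and 0.968% lower). At adjusted p under 0.05 there were 0 of them in the authors' deposited table, against 1% of its genes (0.346% higher and 0.655% lower). At an unadjusted p under 0.05 there were 3 of the 36 by edgeR, Xbp1, Derl1 and Pdia4, all lower, against 10.4% of all genes (4.66% higher and 5.71% lower). The groups did not overlap for 8 of the 36, 3 higher and 5 lower, against 18.6% of all genes (8.87% higher and 9.73% lower). These shares are near those of all genes. The median log2 fold change over the 36 was -0.04, with 15 above 0 and 21 below, and it was 0.06 over all genes tested.

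**Figure D1:**
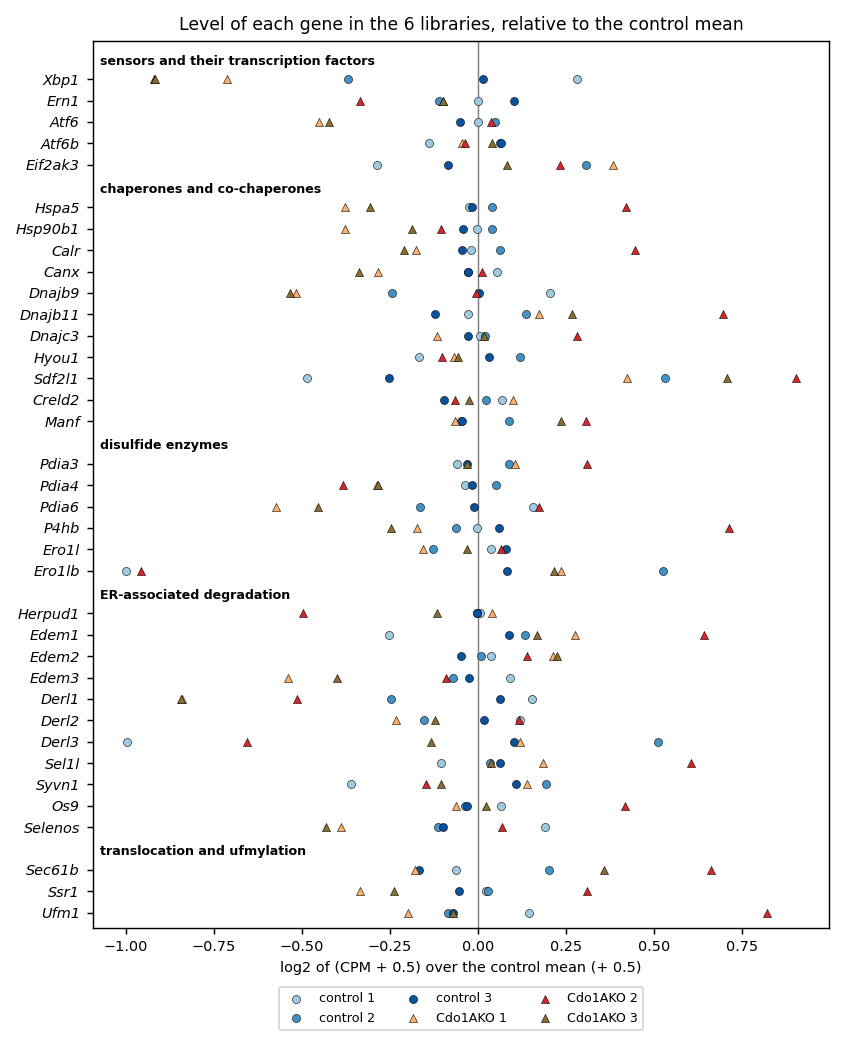
Each point is the level of a gene in a library, as the log2 of CPM plus 0.5 over the control mean plus 0.5; circles are the 3 controls and triangles the 3 Cdo1AKO libraries. Xbp1 and Derl1 lie below every control in all 3 Cdo1AKO libraries, and Cdo1AKO 2 is the highest library for 15 of the 36 genes.

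By sub-group the medians were small. The 5 sensor and transcription factor genes had a median log2 fold change of -0.18, the 11 chaperones and co-chaperones 0.01, the 6 disulfide enzymes -0.06, the 11 genes of ER-associated degradation -0.07 and the 3 translocation and ufmylation genes 0.26. The median over the sensor genes, relative to the control mean, was -0.10, -0.04 and -0.10 in Cdo1AKO 1 to 3 and 0.00 to 0.05 in the controls, so that its groups did not overlap. The groups overlapped in each of the other 4 sub-groups. Of the 5 sensor genes Xbp1 alone had groups that did not overlap, and 18.6% of all genes tested had such groups. In the 4 libraries with lymph node transcripts all 5 medians were below 0, where the median over all genes was 0.00373. They were -0.10 for sensors, -0.15 for chaperones, -0.16 for disulfide enzymes, -0.12 for degradation and -0.06 for translocation and ufmylation. This was not particular to these genes. The 162 other secretory pathway genes described below had a median of -0.15 there, with 119 below 0. Of the 12 genes with a promoter element, 4 had a fold change above 0 and 8 below, with a median of -0.06 and a range from -0.25 to 0.40. The 20 genes whose windows held none had a median of 0.06 and a range from -0.85 to 0.73. Xbp1 and Pdia4 are among these 20, and Derl1 had no window.

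Xbp1 (ENSMUSG00000020484, mm10 chromosome 11, 5520659 to 5525893, plus strand), the transcription factor downstream of IRE1, stood at 406, 258 and 338 CPM in control 1 to 3. In Cdo1AKO 1 to 3 it stood at 204, 176 and 177 CPM. Every Cdo1AKO library lay below every control, with Cdo1AKO 2 and 3 the lowest. The means were 334 ± 73.8 CPM against 186 ± 15.7 CPM (SD, n = 3), a log2 fold change of -0.85 ± 0.21 (SE), or 44.4% lower. The adjusted p was 0.345 by edgeR and 0.0579 by DESeq2. In the authors' deposited table its adjusted p was 0.0551. The log2 fold change ran from -1.01 to -0.69 when each library was left out. In Cdo1AKO 2 the summed adipocyte markers lay within the control range. The sum does not describe each marker, as Adipoq lay within the control range there and Pnpla2 and Plin4 below every control. The part of these markers in the level of Xbp1 was not tested.

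The 3 sensors that act before Xbp1 or beside it differed less. Ern1, the kinase and nuclease that splices Xbp1, stood at 30.0, 27.8 and 32.2 CPM in controls and at 28.0, 23.7 and 28.0 CPM in Cdo1AKO. Its groups overlapped narrowly, and its log2 fold change was -0.18 ± 0.15. Atf6 stood at 66.2, 68.5 and 63.9 CPM in controls and at 48.3, 67.9 and 49.2 CPM in Cdo1AKO. Cdo1AKO 1 and 3 were below the controls and Cdo1AKO 2 was within them, with a log2 fold change of -0.26 ± 0.17 over all libraries and -0.44 without Cdo1AKO 2. Atf6b, a related factor, stood at 51.1, 59.0 and 59.0 CPM in controls and at 54.6, 54.9 and 58.0 CPM in Cdo1AKO (-0.01 ± 0.13). Eif2ak3, which encodes PERK, stood at 23.9, 36.3 and 27.6 CPM in controls and at 38.3, 34.5 and 31.1 CPM in Cdo1AKO (0.24 ± 0.20; leaving out control 1 gave 0.11 and leaving out control 2 gave 0.42). The adjusted p of these 4 genes ran from 0.644 for Atf6 to 0.978 for Atf6b by edgeR.

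Chaperones bind unfolded chains and hold them in solution, and co-chaperones of the DnaJ family deliver substrates to them. Hspa5 (ENSMUSG00000026864, mm10 chromosome 2, 34771970 to 34777547, plus strand) encodes BiP, the Hsp70 chaperone that also restrains the sensors. It stood at 362, 379 and 364 CPM in controls and at 283, 493 and 298 CPM in Cdo1AKO. The controls lay close together, with Cdo1AKO 2 above all of them and Cdo1AKO 1 and 3 below. The log2 fold change was therefore -0.04 ± 0.25 over all libraries (adjusted p = 0.963 by edgeR) and -0.34 without Cdo1AKO 2. Calr, the lectin chaperone calreticulin, had the same layout, at 316 to 340 CPM in controls, 288 and 282 CPM in Cdo1AKO 1 and 3 and 444 CPM in Cdo1AKO 2. Canx, its membrane-bound relative calnexin, stood at 218 to 231 CPM in controls, 183 and 176 CPM in Cdo1AKO 1 and 3 and 225 CPM in Cdo1AKO 2. Hsp90b1, the Hsp90 chaperone of the ER, lay lower in all 3 Cdo1AKO libraries, at 185 to 223 CPM against 234 to 247 CPM, with a log2 fold change of -0.22 ± 0.14.

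Of the co-chaperones and small stress-inducible proteins, Dnajb11, Sdf2l1 and Dnajb9 had the smallest p. Dnajb11, a DnaJ partner of BiP, stood at 46.6, 52.3 and 43.6 CPM in controls and at 53.6, 77.3 and 57.3 CPM in Cdo1AKO. Its groups did not overlap, at a log2 fold change of 0.40 ± 0.18 (edgeR, adjusted p = 0.523) that was 0.22 without Cdo1AKO 2. Sdf2l1, which works with Dnajb11 in a chaperone complex, had the highest log2 fold change of the 36, at 0.73 ± 0.33 (adjusted p = 0.523 by edgeR). It stood at 5.22, 11.1 and 6.22 CPM in controls and at 10.2, 14.5 and 12.6 CPM in Cdo1AKO, so that control 2 lay above Cdo1AKO 1, and the value was 1.11 without control 2. It was also among the 8 genes with the lowest levels per kilobase. Dnajb9, an inducible DnaJ protein and a target of XBP1, stood at 60.0, 43.8 and 52.1 CPM in controls and at 36.2, 51.8 and 35.7 CPM in Cdo1AKO. Cdo1AKO 1 and 3 lay below the controls and Cdo1AKO 2 among them, and the log2 fold change was -0.33 ± 0.21, or -0.53 without Cdo1AKO 2. Dnajc3, Hyou1, Creld2 and Manf had log2 fold changes of 0.07, -0.08, 0.01 and 0.17, each within 1.5 times its SE. Dnajc3 encodes a PERK inhibitor and Hyou1 a large Hsp70 relative that aids BiP. Reads of Manf may be shared with Dcaf1 and Rbm15b, whose spans overlap it and which had mean levels of 36.7 and 38.3 CPM.

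Protein disulfide isomerases form and reshuffle disulfide bonds, and the Ero1 oxidases reoxidise them. Pdia4 (ENSMUSG00000025823, mm10 chromosome 6, 47796141 to 47813430, minus strand) differed most in this sub-group. It stood at 96.5, 103 and 97.9 CPM in controls and at 81.1, 75.8 and 81.3 CPM in Cdo1AKO. The 2 groups were tight and clearly apart, at 99.0 ± 3.17 CPM against 79.4 ± 3.10 CPM (SD, n = 3). The log2 fold change of -0.32 ± 0.12 had adjusted p = 0.440 by edgeR, and it ran from -0.34 to -0.28 with each library left out. Pdia6 stood at 213, 170 and 189 CPM in controls and at 128, 215 and 139 CPM in Cdo1AKO (-0.25 ± 0.24; leaving out Cdo1AKO 1 gave -0.11 and leaving out Cdo1AKO 2 gave -0.51). Pdia3, which works with calnexin and calreticulin on glycoproteins, stood at 206, 229 and 211 CPM in controls and at 232, 267 and 211 CPM in Cdo1AKO (0.14 ± 0.15). In both the groups overlapped, and Cdo1AKO 2 was the highest of the 6 libraries.

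P4hb, which encodes the isomerase PDI and is also the beta subunit of collagen prolyl 4-hydroxylase, stood at 309 to 336 CPM in controls, 286 and 271 CPM in Cdo1AKO 1 and 3 and 528 CPM in Cdo1AKO 2. Its log2 fold change was 0.17 ± 0.29, and -0.21 without Cdo1AKO 2. The 9 fibroblast and progenitor markers summed to 6679 CPM in Cdo1AKO 2 and to 2319 to 3261 CPM in the other 5 libraries. Their part in the level of P4hb was not tested. The oxidase gene Ero1l varied little, at 28.4 to 32.9 CPM in controls and 27.8 to 32.5 CPM in Cdo1AKO. Its paralog Ero1lb stood at 14.1, 41.4 and 30.3 CPM in controls and at 33.8, 14.5 and 33.3 CPM in Cdo1AKO. Control 1 and Cdo1AKO 2 were low, and these are the libraries without lymph node transcripts. The log2 fold change was -0.07 ± 0.48, and among the 36 genes Derl3 alone had a larger SE.

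**Figure D2:**
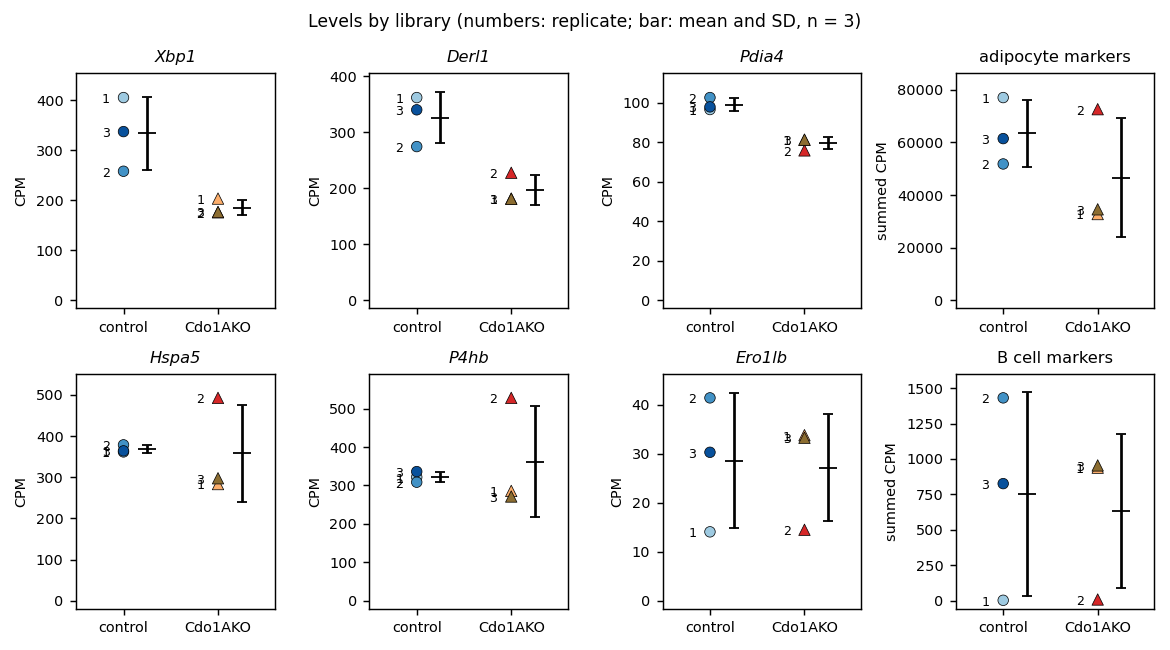
CPM of 6 genes and the summed CPM of adipocyte and B cell markers, in each library; numbers mark the replicate and bars give the mean and SD of 3 libraries. The groups are apart for Xbp1, Derl1 and Pdia4, Cdo1AKO 2 is the highest library for Hspa5 and P4hb, and Ero1lb is low in control 1 and Cdo1AKO 2, where the B cell markers are near 0.

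In ER-associated degradation, mannosidase-like EDEM proteins and the lectin Os9 pick substrates, Sel1l and the ubiquitin ligase Syvn1 form the core channel, and derlins, Selenos and Herpud1 assist the export. Derl1 (ENSMUSG00000022365, mm10 chromosome 15, 57869502 to 57892448, minus strand), which encodes derlin-1, stood at 362, 274 and 340 CPM in controls. In Cdo1AKO 1 to 3 it stood at 182, 228 and 181 CPM. Every Cdo1AKO library lay below every control. The means were 325 ± 45.5 CPM against 197 ± 26.7 CPM (SD, n = 3), a log2 fold change of -0.73 ± 0.18, or 39.5% lower. It had adjusted p = 0.345 by edgeR and 0.0773 by DESeq2, and the authors' deposited table gives adjusted p = 0.0735. The value ran from -0.84 to -0.65 with each library left out. The other derlin genes lay nearer to control. Derl2 stood at 56.2 to 68.0 CPM in controls and 53.2 to 67.9 CPM in Cdo1AKO (-0.07 ± 0.15), and Derl3 had 14 to 63 counts per library and -0.23 ± 0.55. The difference between Derl1 and these 2 was not tested.

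The 3 EDEM genes pointed in different directions. Edem1 stood at 118, 154 and 149 CPM in controls and at 170, 219 and 158 CPM in Cdo1AKO, with every Cdo1AKO library above every control (0.38 ± 0.19, adjusted p = 0.564 by edgeR, and 0.22 without Cdo1AKO 2). Edem2 stood at 36.5 to 38.7 CPM in controls and 41.6 to 44.2 CPM in Cdo1AKO, also without overlap (0.20 ± 0.12, adjusted p = 0.614 by edgeR). Edem3 stood at 69.8, 62.3 and 64.4 CPM in controls and at 44.9, 61.5 and 49.6 CPM in Cdo1AKO, with every Cdo1AKO library below every control (-0.33 ± 0.16, adjusted p = 0.540 by edgeR). Each difference was larger than its SE, and none passed the test.

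The genes of the core channel and its helpers were also without a call. Sel1l stood at 123 to 139 CPM in controls, 151 and 136 CPM in Cdo1AKO 1 and 3 and 202 CPM in Cdo1AKO 2 (0.30 ± 0.19, and 0.11 without it). Syvn1 stood at 64.0, 94.3 and 88.8 CPM in controls and at 90.8, 74.4 and 76.5 CPM in Cdo1AKO (-0.03 ± 0.19). The span of Syvn1 overlaps Mrpl49 on the opposite strand, at a mean of 38.4 CPM, and that of Derl2 overlaps Mis12, and reads from such pairs cannot be told apart without a strand setting. Os9 had a log2 fold change of 0.14 and Selenos of -0.23, the latter from -0.41 to -0.14 with each library left out. Herpud1 was nearly constant in controls, at 105 to 106 CPM, and stood at 109, 74.7 and 97.4 CPM in Cdo1AKO 1 to 3 (-0.17 ± 0.17, and -0.04 without Cdo1AKO 2). Here Cdo1AKO 2 was the lowest library, unlike for Hspa5, Calr, Edem1 and Sel1l.

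Sec61b, a subunit of the translocon through which new chains enter the ER, stood at 41.9, 50.3 and 38.9 CPM in controls and at 38.6, 69.5 and 56.2 CPM in Cdo1AKO (0.32 ± 0.24). Ssr1, of the translocon-associated complex, stood at 112, 112 and 106 CPM in controls and at 87.2, 136 and 93.2 CPM in Cdo1AKO (-0.06 ± 0.20). Ufm1, a ubiquitin-like modifier used at the ER, stood at 61.6, 52.5 and 53.0 CPM in controls and at 48.5, 98.8 and 53.0 CPM in Cdo1AKO (0.26 ± 0.29). In all 3 genes Cdo1AKO 2 was the highest library. Without it the log2 fold changes were 0.12 for Sec61b, -0.29 for Ssr1 and -0.13 for Ufm1, so that the median of this sub-group turned to -0.13.

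Cdo1AKO 2 was the highest of the 6 libraries for 15 of the 36 genes, or 41.7%, against 31.7% of all genes tested. Cdo1AKO 1 was the lowest for 13 of the 36, or 36.1%, against 16.1% of all genes. When Cdo1AKO 2 was left out, 12 of the 36 had an unadjusted p under 0.05 by edgeR, against 27.3% of all genes, and all 12 were lower (11.8% of all genes were higher and 15.5% lower). They were Xbp1, Atf6, Hspa5, Hsp90b1, Canx, Dnajb9, Pdia4, Pdia6, Edem3, Derl1, Selenos and Ssr1, and 0 passed after adjustment. The lower direction was shared by the 162 other secretory pathway genes described below. Of these, 58 had an unadjusted p under 0.05 by edgeR without Cdo1AKO 2, 49 of them lower. Their median log2 fold change was -0.19 there, against -0.08 over the 36. In that comparison 2 Cdo1AKO libraries with low adipocyte marker levels, 32785 and 34588 CPM, stood against 3 controls at 51813 to 77035 CPM. The part of those markers in these 12 values was not tested.

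Among the 4 libraries with lymph node transcripts, 2 per group, edgeR called 5 of the 36 at adjusted p under 0.05, all lower, against 15.3% of all genes (7.65% higher and 7.7% lower). At an unadjusted p under 0.05 there were 13 of the 36, 12 of them lower, against 32% of all genes (16.2% higher and 15.7% lower). Among the 162 other secretory pathway genes edgeR gave 61 such values there, 53 of them lower. Derl1 fell by 0.77 on the log2 scale (adjusted p = 0.0129), Atf6 by 0.45 (0.0282), Xbp1 by 0.65 (0.0336), Edem3 by 0.43 (0.0355) and Pdia6 by 0.43 (0.0439). All 4 libraries showed these directions, which is no separate support, as the 5 genes were called in these same libraries. This fit rests on Cdo1AKO 1 and 3, the pair of libraries closest to each other. Their summed adipocyte markers were 32785 and 34588 CPM, against 51813 and 61446 CPM in control 2 and 3. The part of those markers in these 5 values was not tested. With all 6 libraries and a term for lymph node transcripts, edgeR called 1 of the 36, Derl1 (log2 fold change -0.73 ± 0.15, adjusted p = 0.0459), against 4.13% of all genes (2.26% higher and 1.87% lower). Xbp1 there had -0.83 ± 0.19 and adjusted p = 0.0594. With that term 7 of the 36 had an unadjusted p under 0.05, against 22.9% of all genes (12.8% higher and 10.1% lower). They were Xbp1, Derl1, Pdia4, Edem3 and Dnajb9 on the lower side and Dnajb11 and Sdf2l1 on the higher side.

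**Figure D3:**
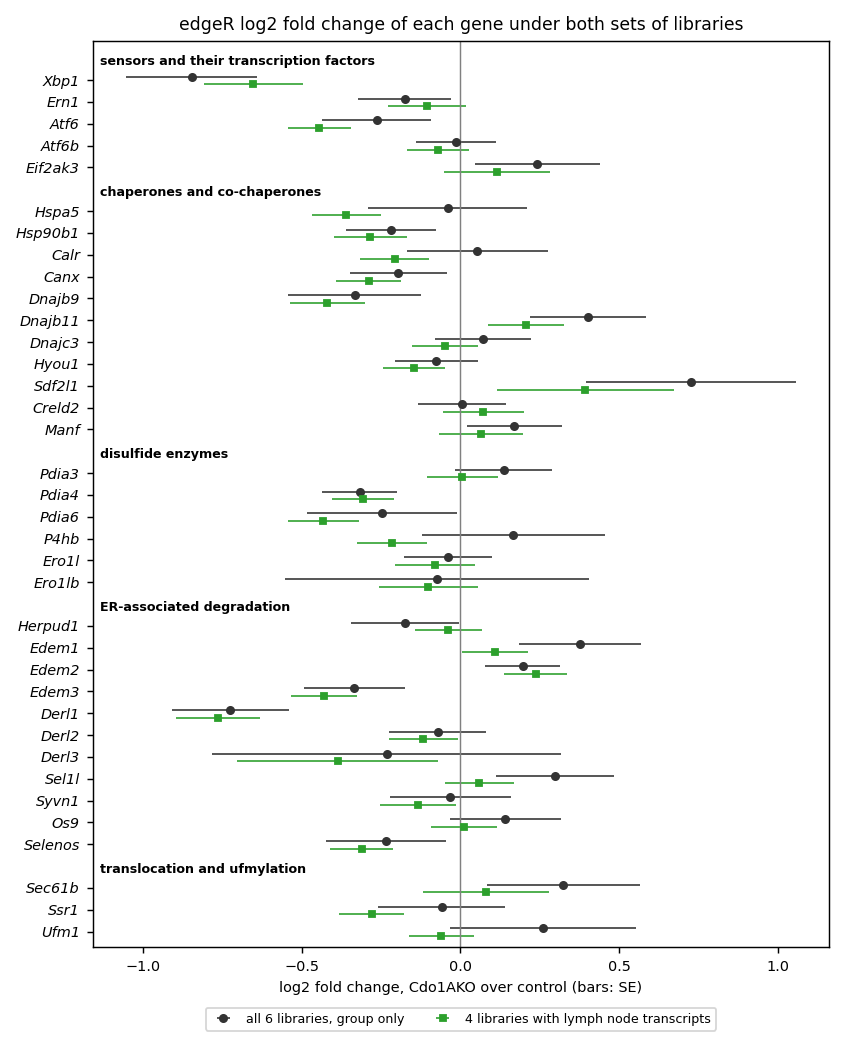
Log2 fold change of Cdo1AKO over control with its SE for each gene, from all 6 libraries (circles) and from the 4 libraries with lymph node transcripts (squares). Xbp1 and Derl1 lie lowest in both, and Hspa5, Calr and P4hb move from near 0 to between -0.36 and -0.21 in the 4 libraries.

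Of the 36 genes, 4 were higher in each of the 4 libraries with lymph node transcripts than in control 1 and Cdo1AKO 2, namely Ero1lb, Derl3, Syvn1 and Hyou1, and 6 were lower in each. These shares, 11.1% and 16.7%, compare with 22.3% and 18.9% of all genes. The 6 were Canx, Pdia6, Derl2, Os9, Selenos and Ufm1. Derl3, which is abundant in secretory cells such as plasma cells, was measured at 0.859 CPM in control 1, at 1.22 CPM in Cdo1AKO 2 and between 1.98 and 3.37 CPM in the other 4. The 13 plasma cell markers, immunoglobulin genes among them, summed to 276 CPM in control 1 but to 1489 CPM in Cdo1AKO 2, the highest of the 6 libraries. Only 5 of the 13 had a higher mean in Cdo1AKO than in controls, and the sum does not describe each marker. Derl3 was low in Cdo1AKO 2, where that sum was highest, but it had only 14 to 63 counts per library. The part of plasma cells in the level of Derl3 was not tested. The median within-group SD on the log2 scale was 0.21 over the 36 genes and 0.32 over all genes tested, whose median level was 18.8 CPM against 65.8 CPM.

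Per kilobase of the listed gene length, levels of the 36 genes spanned 2 orders of magnitude. P4hb and Calr were highest, at mean levels of 120 and 115 CPM per kilobase, followed by Hspa5 at 85.9, Os9 at 81.4, Xbp1 at 80.0 and Derl1 at 78.4. The sensors Atf6, Eif2ak3 and Ern1 were low, at 6.57, 5.30 and 3.46 CPM per kilobase, while Atf6b was at 20.4. Derl3 was lowest at 1.03. In controls Xbp1 was at 103 CPM per kilobase and Derl1 at 97.8, above Hspa5 at 87.1. In Cdo1AKO they were at 57.1 and 59.1, below Hspa5 at 84.7. The libraries of P4hb and Calr overlapped on this scale, as did those of Hspa5, Os9, Xbp1 and Derl1, and those of Eif2ak3, Ero1lb and Ern1.

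Other genes of the secretory pathway were 162 in 8 lists. By edgeR 0 of the 162 passed at adjusted p under 0.05, and 13 had an unadjusted p under 0.05, 5 higher and 8 lower, against 10.4% of all genes (4.66% higher and 5.71% lower). DESeq2 called 2, against 1.48% of all genes. Neither count is above the share over all genes. Their median log2 fold change was -0.02 over all 6 libraries. It was -0.15 in the 4 libraries with lymph node transcripts and -0.19 without Cdo1AKO 2. In the list of 12 genes of the ATF4 and CHOP branch, which PERK feeds through eIF2alpha, 5 had an unadjusted p under 0.05 by edgeR, 3 lower and 2 higher, beside the same 10.4% of all genes. Asns, the asparagine synthetase and an ATF4 target, stood at 157, 78.2 and 111 CPM in controls and at 36.7, 49.9 and 40.2 CPM in Cdo1AKO. Its log2 fold change of -1.45 ± 0.28 had adjusted p = 0.271 by edgeR, and it was called by DESeq2 (adjusted p = 0.00271) and in the authors' deposited table (adjusted p = 0.00257). Chac1, a glutathione-degrading enzyme and a target of ATF4, stood at 54.7, 16.4 and 32.9 CPM in controls and at 13.0, 11.5 and 11.3 CPM in Cdo1AKO. Its log2 fold change was -1.53 ± 0.42, with adjusted p = 0.0448 by DESeq2 and 0.362 by edgeR. Both genes were lower in every Cdo1AKO library than in every control.

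The 2 regulatory subunits that direct a phosphatase to eIF2alpha differed in sign. Ppp1r15b, the constitutive subunit, stood at 185, 150 and 185 CPM in controls and at 116, 94.6 and 110 CPM in Cdo1AKO (-0.70 ± 0.16, adjusted p = 0.333 by edgeR). Ppp1r15a, the stress-inducible subunit, stood at 26.5, 26.4 and 27.8 CPM in controls and at 35.0, 30.6 and 38.9 CPM in Cdo1AKO (0.37 ± 0.15, adjusted p = 0.464 by edgeR). Neither pair of groups overlapped. Atf4 itself had -0.32 ± 0.16, and Ddit3, which encodes CHOP, had 0.22 ± 0.20. Atf3, a stress-inducible factor, had 1.17 ± 0.40, and 0.69 without Cdo1AKO 2.

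For each of the other lists the 3 genes with the smallest p are given. Among signalling factors Nfe2l2 had -0.35, Mbtps2, which cuts ATF6, -0.24 and Creb3 0.29. Among folding factors Pdia5 stood at 4.92 to 5.42 CPM in controls and 8.20 to 12.2 CPM in Cdo1AKO (0.92 ± 0.22, adjusted p = 0.345 by edgeR), and Prdx4 had 0.49. Ppic, a cyclophilin, stood at 54.1, 152 and 54.5 CPM in Cdo1AKO 1 to 3 against 32.8 to 38.2 CPM in controls, a log2 fold change of 1.32 that was 0.65 without Cdo1AKO 2. Among degradation factors the ligase gene March6 had -0.65, Selenok, a partner of the derlins, -0.61 and Erlin1 -0.31. In the translocon list Sec61a2 had -0.72, Sec11c 0.69 and Sec11a 0.27. In the glycosylation list Ostc had 0.49, Alg9 -0.49 and Tusc3 0.34. Without Cdo1AKO 2 the values were 0.02 for Creb3, 0.24 for Prdx4 and 0.15 for Tusc3, and without control 1 that of Sec11c was 0.46. The ufmylation genes Ddrgk1, Ufl1 and Cdk5rap3 had -0.41, -0.16 and 0.16, and the transport genes Sec24b, Preb and Kdelr1 -0.46, -0.28 and -0.35. Ddrgk1 ran from -0.62 to -0.25, Ufl1 from -0.25 to -0.11 and Cdk5rap3 from 0.05 to 0.23 with each library left out.

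**Figure D4:**
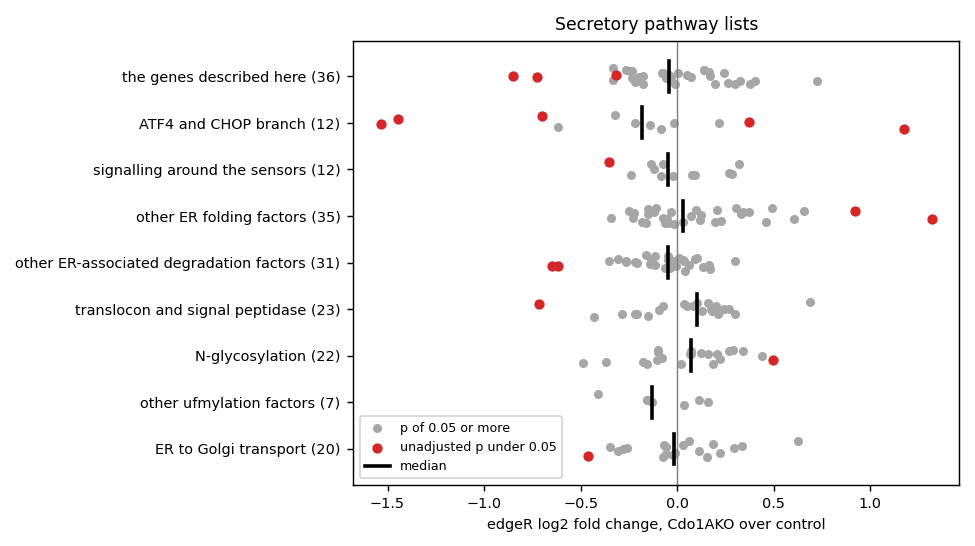
The edgeR log2 fold change of Cdo1AKO over control for the genes described here and for 8 lists of other secretory pathway genes, with the number tested in parentheses; red points have an unadjusted p under 0.05 and black bars mark medians. The ATF4 and CHOP list spans the widest range, from -1.53 for Chac1 to 1.17 for Atf3.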

How the data were processed

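Trizol extraction and a NEBNext Ultra library kit are given in the labels' protocols. The authors deposited raw counts per gene, FPKM values and their own comparison (log2 fold changes, p-values, adjusted p-values and normalized group means), per the file headers. The submitters' processing notes name mm10, DESeq2 1.20.0, featureCounts 1.5.0-p3 and HISAT2 2.0.5 without roles. The sources used here do not say whether counting used strand. FPKM was not used. Coordinates of genes are those of the table.

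Genes passing filterByExpr received TMM factors, and the quasi-likelihood test of edgeR 4.0.16 was run in R 4.3.3 with group as the only term, with Benjamini-Hochberg adjustment over 16623 genes and a threshold of 0.05. Limma 3.58.1 and DESeq2 1.42.0 were alternatives. Libraries were taken to hold lymph node transcripts where the median CPM of B cell and lymph node stroma markers was above 5. Lists of pathway and marker genes, the sub-groups and that term were chosen with earlier results of these data known. Values per library are given for the 5 sensor genes, Hspa5, the 3 genes of smallest p in each other sub-group and any gene called in a fit; other genes shown were chosen after their values were seen. Of other lists the 3 genes of smallest p are named, and Atf4, Ddit3, Ppp1r15a and Atf3 were added after their values were seen. Ddit3 names 2 genes in the table, of which the one with higher counts was kept, and 4 symbols were matched through RefSeq synonyms. Only 3 samples per group limit the precision. The fit with group only was run on simulated counts for 16623 genes. It recovered 0 of 67 genes at 1.5-fold, 0 of 67 at 2-fold and 12 of 66 at 4-fold. With the lymph node term the fit recovered 0 of 67, 24 of 67 and 58 of 66. Each fit had its own simulated counts, drawn from its own fitted means and dispersions. These recoveries therefore do not compare the fits on the same counts. Of 16423 unchanged genes the fits called 1 and 9.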

Additional observations from a re-analysis of the deposited data

How the results depend on the processing

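Over all genes, 0 were called by edgeR with group only, 271 by DESeq2, 686 with the lymph node term and 2617 in the 4 libraries with lymph node transcripts. Of the 36 genes, 0, 0, 1 and 5 were called in these fits, and 3, 2, 7 and 13 had an unadjusted p under 0.05. In the 4 libraries the median log2 fold change was -0.10 for sensors, -0.15 for chaperones, -0.16 for disulfide enzymes, -0.12 for degradation, -0.06 for translocation and ufmylation and -0.11 for all 36, with 25 below 0, and the values of Calr, Dnajc3, P4hb and Ufm1 turned to -0.21, -0.049, -0.22 and -0.060. Leaving out each library, 0 genes and 0 of the 36 were called, 2 to 12 of the 36 had an unadjusted p under 0.05, and the medians ran from -0.23 to -0.10 for sensors, -0.06 to 0.10 for chaperones, -0.15 to 0.02 for disulfide enzymes, -0.14 to 0.072 for ER-associated degradation, -0.13 to 0.45 for translocation and ufmylation and -0.08 to 0.01 for all 36. Without control 2 the degradation median was 0.072, and without Cdo1AKO 2 that of translocation and ufmylation was -0.13. The log2 fold changes that changed sign in this way ran from -0.087 to 0.018 for Atf6b, -0.34 to 0.10 for Hspa5, -0.19 to 0.17 for Calr, -0.047 to 0.16 for Dnajc3, -0.043 to 0.041 for Creld2, -0.21 to 0.34 for P4hb, -0.10 to 0.019 for Ero1l, -0.41 to 0.29 for Ero1lb, -0.18 to 0.0045 for Derl2, -0.62 to 0.20 for Derl3, -0.19 to 0.072 for Syvn1, -0.019 to 0.24 for Os9, -0.29 to 0.063 for Ssr1 and -0.13 to 0.45 for Ufm1. The cause of these changes was not tested. RLE scaling, other filters on low counts, limma-voom and robust estimation changed no call and no sign among the 36, with 2 to 4 at an unadjusted p under 0.05. Deviations from the group means correlated at -0.66, -0.67 and 0.45 between samples with the same replicate number, 1 to 3. Control 1 and Cdo1AKO 2, both without lymph node transcripts, correlated at 0.71. The signs of these correlations follow that split of the libraries, so they cannot show whether the numbers pair samples. With the replicate block in edgeR 0 genes were called and 3 of the 36 had an unadjusted p under 0.05. Counts limit Derl3 most, with 14 to 63 per library.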
